A study of Rattus norvegicus with 8 samples.

Results

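Complement genes of the rat Achilles tendon were examined in RNA sequencing of tendons taken at rest and straight after running. The genes were chosen by symbol as components of the complement system, namely C1r, C1s, C2, Cfb, C3, C7, Serping1, Cd55 and C5ar1. Of these 9 genes, 8 had a row in the table of 15590 genes and all 8 were tested, while Cfb was not analysed here. The 8 libraries came from the right Achilles tendons of wild-type male Sprague-Dawley rats aged 8 to 10 weeks, with 4 libraries in each of 2 groups. Rats of the 0 h p.r. (post-running) group ran uphill on a treadmill for 1 h at 20 m/min and an incline of 10 degrees and were killed straight afterwards. Rats of the naïve control (NC) group kept to normal activity and, by the methods of the study, were killed at the same time as a further group at 12 h p.r., whereas the labels describe both groups here as killed immediately. If the methods hold, time of death and running cannot be told apart. The sources used here do not say whether rats were pooled, and the p-values measure the spread between these libraries.

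Complement is a cascade of blood and tissue proteins that marks surfaces for clearance and can form pores in membranes. The proteases C1r and C1s start the classical pathway, C2 and Cfb supply the protease of the enzymes that cleave C3, and the terminal proteins, among them C7, assemble the pore. Serping1 and Cd55 restrain the cascade, and C5ar1 is a receptor for a fragment of C5. Most plasma complement is made in the liver, but fibroblasts, fat cells and macrophages also transcribe many of its genes.

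Of the 8 genes, Cd55 was the only one that passed the thresholds, and it rose 2.65-fold after running. The other 7, including both C1 proteases, C2, C3, C7, Serping1 and C5ar1, did not pass. A gene passed at a Benjamini-Hochberg adjusted p under 0.05 (limma, over 13863 tested genes) together with a fold change of at least 2. Such calls made up 2.7% of the tested genes, with 1.8% called higher and 0.894% called lower, against 1 of 8 (12.5%) here. An adjusted p under 0.05 alone, whatever the fold, was met by 5.72% of the tested genes (3.49% higher), and among the 8 by Cd55. Complete separation of the 4 NC from the 4 0 h p.r. libraries was seen for 1 of the 8 (12.5%), and for 15.6% of all tested genes. An unadjusted p under 0.05 was reached by 2 of the 8 (25%) and by 22.6% of all tested genes. The median log2 fold change of the 8 genes was 0.24, with 5 above 0, beside a median of -0.0014 and 49.9% above 0 over all tested genes. In whole tendon, more cells of a type and more RNA per cell cannot be told apart.

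Libraries held 11350560 to 17897056 reads in the listed genes, recovered from the steps between values. Replicate 4 of 0 h p.r. stood apart in several respects. Its summed skeletal muscle markers were 989 FPKM (fragments per kilobase of gene, scaled between libraries), against 5666 to 33410 in the other 0 h p.r. libraries and 3703 to 6637 in NC. Replicates 1 and 3 of 0 h p.r. were above the NC range in this sum, at 33410 and 15066 FPKM. The summed tenocyte and fibroblast markers of replicate 4 were 20409 FPKM, against 6951 to 12754 in the other 7 libraries. Most of this sum was the proteoglycan Dcn, at 14777 FPKM against 3630 to 6804 FPKM in the other 7. Of these 10 markers, 4 were highest of all 8 libraries in this replicate, compared with 11.8% of all tested genes. It was the highest of the 4 0 h p.r. libraries for 6 of the 8 complement genes, compared with 32.7% of all tested genes. It was the highest of all 8 libraries for 5 of the 8 genes, compared with 11.8% of all tested genes. Log2 fold changes without this library are given beside the main values for the 8 genes, Cfd, Masp1, Clu and C5ar2.

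Markers of the cells a tendon could hold were read to check the tissue and the word local. All 10 tenocyte and fibroblast markers were listed, led by the proteoglycan Dcn at 3630 to 6746 FPKM in NC and 5212 to 14777 FPKM in 0 h p.r. Of 10 hepatocyte markers 4 were listed, and albumin (Alb) had 2 to 35 reads per library and fell below the filter on low values. Apoa1 lay between 0.227 and 1.67 FPKM over the 8 libraries. Tf and Serpina1, which liver makes but other cells can transcribe, were higher. Tf lay between 56.5 and 94.4 FPKM in NC and between 65.0 and 105 FPKM in 0 h p.r. Serpina1 lay between 4.07 and 27.1 FPKM in NC and between 20.5 and 159 FPKM in 0 h p.r., highest in 0 h p.r. replicate 4, with a log2 fold change of 2.44 (limma adjusted p = 0.067) that did not pass. The 4 hepatocyte markers summed to 70.8 to 122 FPKM in NC and 117 to 231 FPKM in 0 h p.r., and their part in the complement values was not tested. Of 8 macrophage markers 7 were listed, and their sum ran from 92.1 to 133 FPKM in NC and from 83.3 to 177 FPKM in 0 h p.r., with Cd14 the most abundant. Of 8 neutrophil markers 4 were listed, and their sum was 1.44 to 4.67 FPKM in NC and 1.51 to 2.24 FPKM in 0 h p.r. The 2 tested ones passed in opposite directions, with Mpo lower (1.88 against 0.339 FPKM, limma adjusted p = 0.0146) and S100a9 higher (0.362 against 1.49 FPKM, limma adjusted p = 0.0192) after running, the latter from 1 to 15 reads per library. Mast cell markers (5 of 7 listed, led by Cma1) summed to 6.73 to 20.3 FPKM over all libraries. Endothelial markers (6 of 7 listed, led by Cldn5) summed to 340 to 433 FPKM.

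Levels of the complement genes were compared within the groups on the FPKM scale, which is per gene length. In NC the order from high to low was Serping1, C1r, C1s, C7, Cd55, C2, C5ar1 and C3. The mean of Serping1 was 169 FPKM and that of C3 was 0.979 FPKM. Over all 8 libraries, mean FPKM placed Serping1 at the 97.5th percentile of the tested genes, C1r at the 95.1st, C1s at the 90.8th, Cd55 at the 85.1st, C7 at the 84.6th, C2 at the 67.2nd, C5ar1 at the 43.8th and C3 at the 6.13th. In NC, neighbours in this order with overlapping ranges were C1s and C7, C7 and Cd55, and Cd55 and C2. In 0 h p.r. Cd55 stood above C7, and the remaining order was as in NC. There the ranges of C1r and C1s, C1s and Cd55, Cd55 and C7, and C2 and C5ar1 overlapped.

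**Figure D1:**
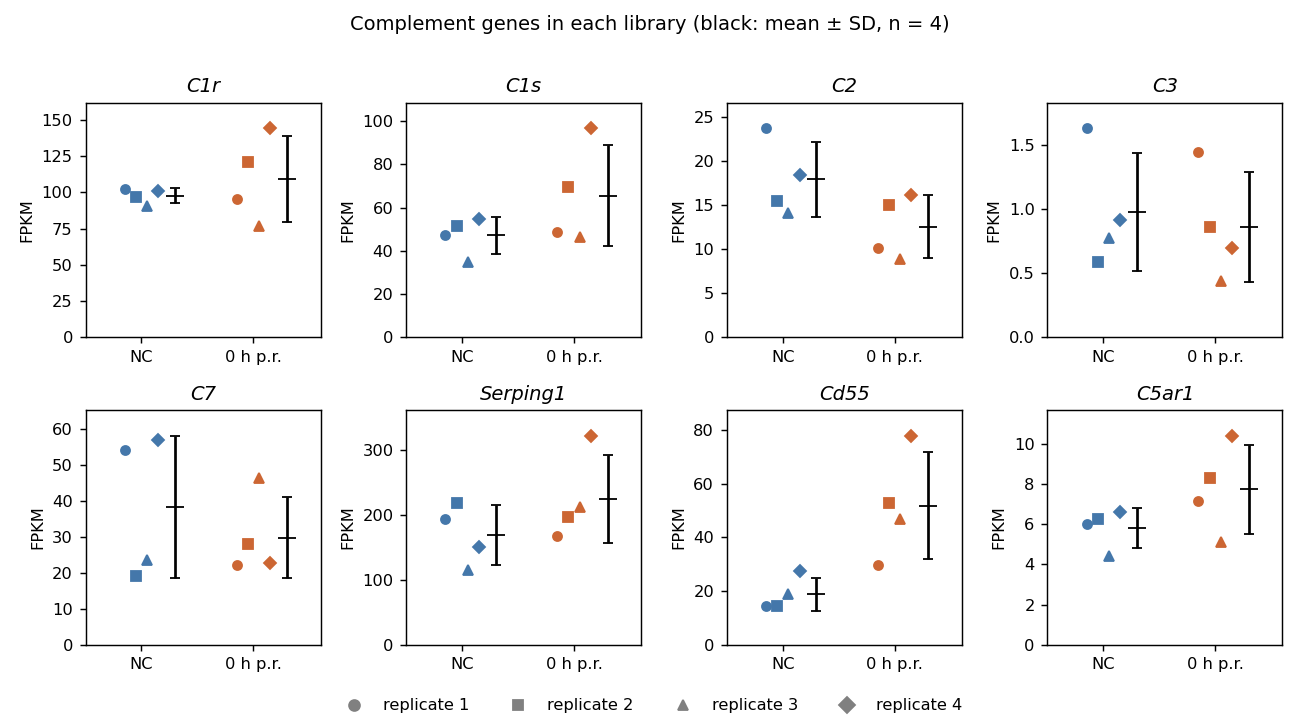
FPKM of the 8 complement genes (vertical axes, each on its own scale from 0) in each library of NC and 0 h p.r. (1 point per library, bars show mean and SD, n = 4). The groups are apart for Cd55 (14.4 to 27.5 against 29.7 to 77.9) and overlap for the other 7 genes.

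The sequence just before the start of transcription was available for C3, C1r and Cd55 among these genes (RefSeq, build GRCr8). They allow Cd55, which passed, to be set beside C3 and C1r, which did not. Each window covers the 250 bases before the annotated start, 5′ to 3′ on the gene's strand, with capitals marking matches to a C/EBP motif. They lie at chr9:2201340-2201589 (minus strand) for C3, chr4:159098763-159099012 (plus strand) for C1r and chr13:44438102-44438351 (minus strand) for Cd55.
C3: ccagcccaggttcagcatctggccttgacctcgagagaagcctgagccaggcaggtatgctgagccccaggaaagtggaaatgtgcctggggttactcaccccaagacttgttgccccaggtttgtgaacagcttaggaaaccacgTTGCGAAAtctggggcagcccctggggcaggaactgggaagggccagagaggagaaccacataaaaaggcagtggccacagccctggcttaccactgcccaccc
C1r: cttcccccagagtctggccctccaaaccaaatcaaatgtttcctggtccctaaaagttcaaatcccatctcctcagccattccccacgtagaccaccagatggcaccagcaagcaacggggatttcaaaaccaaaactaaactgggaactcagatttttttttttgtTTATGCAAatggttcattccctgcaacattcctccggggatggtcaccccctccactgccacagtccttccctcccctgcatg
Cd55: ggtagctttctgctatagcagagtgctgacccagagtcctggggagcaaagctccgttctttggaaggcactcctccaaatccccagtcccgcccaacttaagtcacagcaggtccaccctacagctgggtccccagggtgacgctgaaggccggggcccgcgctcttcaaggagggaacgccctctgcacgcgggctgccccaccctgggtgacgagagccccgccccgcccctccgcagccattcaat
Both strands were searched for NF-kB, C/EBP (TTGCNNAA), GAS (TTCNNNGAA), ISRE, AP-1 (TGANTCA) and TATAAA, and no other match was found in the 3 windows. The C3 window held TTGCGAAA from 104 to 97 bases before the start. The C1r window held TTGCATAA on the opposite strand, printed as TTATGCAA, from 83 to 76 bases before the start. The Cd55 window held none of these letters. Among 33469 rat promoter windows of this length, 9.22% held the C/EBP letters, 3.54% NF-kB, 7.67% GAS, 3.41% ISRE, 6.34% AP-1 and 12.9% TATAAA. The GC content was 58.8% for C3, 49.6% for C1r and 64.4% for Cd55, against a median of 51.2% over all windows.

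The proteases of the classical pathway were taken first. C1r, which cleaves and activates C1s, had 103, 96.7, 90.7 and 101 FPKM in NC replicates 1 to 4 and 95.2, 121, 77.0 and 145 FPKM in 0 h p.r. replicates 1 to 4. The NC libraries lay close together, within 1.13-fold of each other, and the 0 h p.r. libraries spread on both sides of them over a 1.88-fold range. The means were 97.9 ± 5.45 and 109 ± 29.6 FPKM (SD, n = 4 each), and the log2 fold change was 0.12 (SE 0.19, 95% interval -0.30 to 0.55, limma adjusted p = 0.767). Without 0 h p.r. replicate 4 it was -0.02.

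C1s, which cleaves C4 and C2, had 47.1, 51.4, 34.9 and 54.7 FPKM in NC and 48.8, 69.6, 46.5 and 96.9 FPKM in 0 h p.r. Replicates 2 and 4 of 0 h p.r. were above every NC library, and replicates 1 and 3 were within the NC range. The log2 fold change was 0.43 (SE 0.25, 95% interval -0.13 to 0.98, limma adjusted p = 0.352), which left room for a rise of up to 1.98-fold. Without 0 h p.r. replicate 4 it was 0.22. In the RefSeq annotation C1r and C1s are direct neighbours, with C1rl, a protease related to C1r, on the other side of C1r.

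C2, the protease subunit of the classical C3 convertase, had 23.8, 15.5, 14.1 and 18.4 FPKM in NC and 10.1, 15.0, 8.87 and 16.1 FPKM in 0 h p.r. Replicates 1 and 3 of 0 h p.r. were below the lowest NC library, and replicates 2 and 4 were within the NC range. Means were 18.0 ± 4.27 and 12.5 ± 3.57 FPKM (SD, n = 4 each), and the log2 fold change was -0.52 (SE 0.23, 95% interval -1.03 to -0.0013). The unadjusted p was 0.0495 and the limma adjusted p was 0.221, so C2 did not pass. Its sign was negative in all 20 alternative analyses, where the log2 fold change lay between -0.65 and -0.37. The lower end, -0.65, was the value without 0 h p.r. replicate 4.

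C3, on which all pathways converge, was scarce. It had 1.64, 0.584, 0.775 and 0.920 FPKM in NC and 1.45, 0.861, 0.436 and 0.694 FPKM in 0 h p.r., from 29 to 151 reads per library. Replicate 1 was the highest library in each group, and the ranges overlapped. The log2 fold change was -0.13 (SE 0.28, 95% interval -0.76 to 0.51, limma adjusted p = 0.851), and it turned to 0.07 when NC replicate 1 was left out and to 0.04 when 0 h p.r. replicate 3 was. Without 0 h p.r. replicate 4 it was -0.08.

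C7, which anchors the growing pore in the membrane, had 54.1, 19.1, 23.5 and 56.9 FPKM in NC and 22.1, 27.9, 46.4 and 22.8 FPKM in 0 h p.r. Replicates 1 and 4 of NC stood more than 2-fold above replicates 2 and 3, and the highest NC library was 2.97 times the lowest, the widest such spread among the 8 genes. All 0 h p.r. libraries lay inside the NC range. The log2 fold change was -0.27 (SE 0.39, 95% interval -1.15 to 0.61, limma adjusted p = 0.750), and it was -0.16 without 0 h p.r. replicate 4. Over the 20 alternatives it ran from -0.54, without NC replicate 2, to 0.07, when 0 h p.r. replicates 1 and 4 were both left out.

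Serping1, the C1 inhibitor that inactivates C1r and C1s, was the most abundant of the genes. It had 193, 219, 114 and 150 FPKM in NC and 168, 196, 212 and 322 FPKM in 0 h p.r. Replicate 4 of 0 h p.r. was above the NC range, and the other 3 were within it. The log2 fold change was 0.41 (SE 0.26, 95% interval -0.17 to 0.99, limma adjusted p = 0.395). Leaving out 0 h p.r. replicate 4 gave 0.22.

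Cd55, the decay-accelerating factor that takes C3 convertases apart on cell surfaces, had 14.4, 14.5, 18.7 and 27.5 FPKM in NC. In 0 h p.r. it had 29.7, 52.8, 46.7 and 77.9 FPKM. Every 0 h p.r. library was above every NC library, with NC replicate 4 and 0 h p.r. replicate 1 closest to each other. Groups were apart in this direction for 8.15% of all tested genes. The means were 18.8 ± 6.16 and 51.8 ± 19.96 FPKM (SD, n = 4 each), from 444 to 4352 reads per library. The log2 fold change was 1.41 (SE 0.30, 95% interval 0.73 to 2.08, limma adjusted p = 0.0326), a 2.65-fold rise with an interval of 1.66 to 4.24-fold.

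The rise of Cd55 kept its sign in all 20 alternative analyses, with log2 fold changes from 1.19 to 1.64, but its call depended on single libraries. Over these the limma adjusted p ranged from 0.013 to 0.101. It was 0.0968 without NC replicate 1, 0.0682 without NC replicate 2 and 0.0716 without NC replicate 3. It was 0.101 without 0 h p.r. replicate 2 and 0.0813 without 0 h p.r. replicate 3. The call held without 0 h p.r. replicate 4, the highest library, at a log2 fold change of 1.19 (limma adjusted p = 0.0372). After libraries were scaled to the tenocyte and fibroblast markers the log2 fold change was 1.32 (limma adjusted p = 0.063), and after quantile scaling it was also 1.32 (limma adjusted p = 0.0505). The part of tenocytes and fibroblasts in the Cd55 values was not tested beyond this scaling. Summed skeletal muscle markers were 33410, 5666, 15066 and 989 FPKM in 0 h p.r. replicates 1 to 4, and 3703 to 6637 FPKM in NC. The part of muscle in the Cd55 values was not tested.

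**Figure D2:**
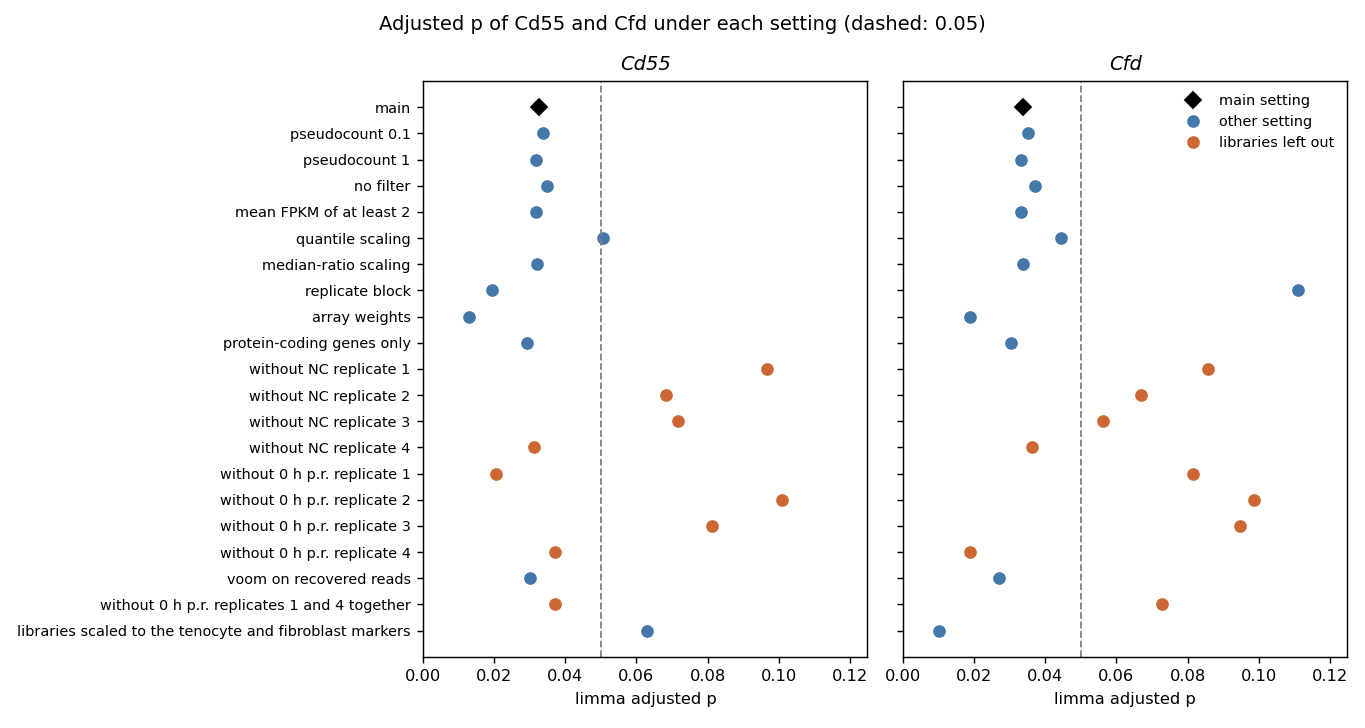
Adjusted p from limma (horizontal axis, linear) for Cd55 and Cfd under each setting (vertical axis), with black diamonds for the main setting, orange points for libraries left out, blue points for other settings and a dashed line at 0.05. Cd55 lies above the line under 7 of 20 alternatives and Cfd under 8 of 20.

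C5ar1, the C5a receptor of myeloid cells, had 6.0004, 6.26, 4.402 and 6.62 FPKM in NC and 7.17, 8.34, 5.12 and 10.4 FPKM in 0 h p.r. Replicates 1, 2 and 4 of 0 h p.r. were above every NC library, and replicate 3 was within the NC range. The log2 fold change was 0.36 (SE 0.21, 95% interval -0.12 to 0.85, limma adjusted p = 0.369), from 121 to 368 reads per library, and without 0 h p.r. replicate 4 it was 0.21. Of the 7 tested macrophage markers none passed, and 4 had a log2 fold change above 0 and 3 below. Cd14 was at 0.52 (limma adjusted p = 0.200) and highest in 0 h p.r. replicate 4, as C5ar1 was, while Cd163 was at -1.09 (limma adjusted p = 0.0982), Mrc1 at -0.61 and Csf1r at -0.22. The part of macrophages in the C5ar1 values was not tested.

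Ratios between genes that act on each other were compared within libraries by exact permutation tests over the 70 assignments of libraries to groups, two-sided, whose smallest p is 0.0286. The tests and log2 differences used ratios after 0.5 was added to each FPKM, while the ratios printed per library are of FPKM without this addition. The ratio C1r/C1s was 2.18, 1.88, 2.60 and 1.85 in NC and 1.95, 1.74, 1.66 and 1.49 in 0 h p.r. In 3 of 4 0 h p.r. libraries it was below the lowest NC library. The difference in log2 ratio was -0.31 (exact p = 0.0857, adjusted over 3 ratios 0.129). The ratio C1s/Serping1, protease over inhibitor, was 0.235 to 0.366 in NC and 0.219 to 0.355 in 0 h p.r., a difference in log2 ratio of 0.02 (exact p = 0.971, adjusted 0.971).

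The ratio C3/Cd55, convertase substrate over decay accelerator, was 0.114, 0.0403, 0.0413 and 0.0334 in NC and 0.0487, 0.0163, 0.00935 and 0.00890 in 0 h p.r. It was below the lowest NC library in 3 of 4 0 h p.r. libraries, and replicate 1 was the highest library in each group. The difference in log2 ratio was -1.53 (exact p = 0.0571, adjusted 0.129). By construction it is the log2 fold change of C3 (-0.13) minus that of Cd55 (1.41), so it restates the rise of Cd55. With C3 at 0.436 to 1.64 FPKM, the added 0.5 also weighs on this ratio. Without 0 h p.r. replicate 4 the differences were -0.24 for C1r/C1s, -0.0015 for C1s/Serping1 and -1.26 for C3/Cd55. With 3 ratios, one that alone reached the smallest exact p would have an adjusted p of 0.0857, so these tests could not call a single ratio.

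**Figure D3:**
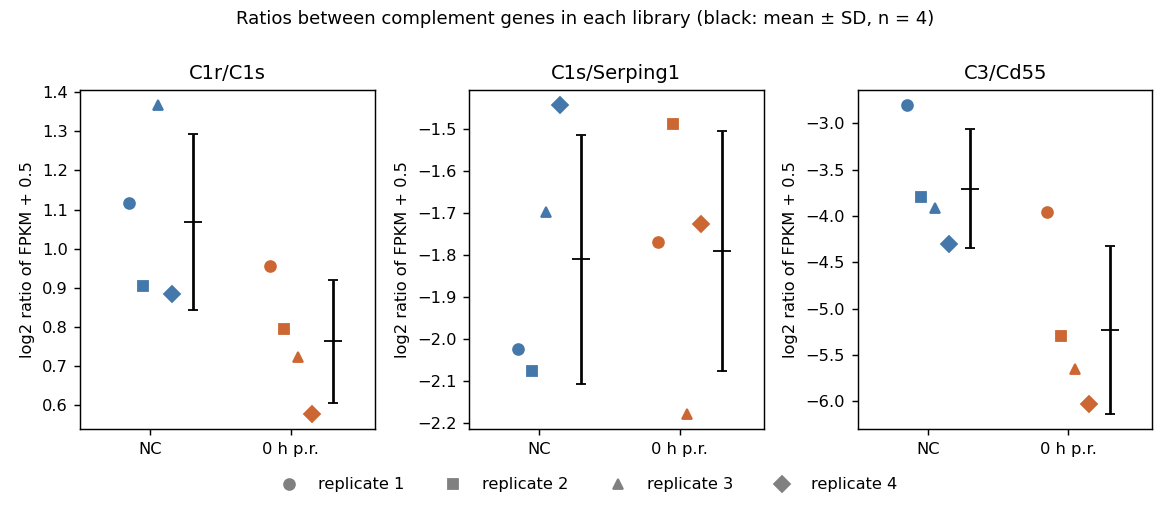
Ratios of FPKM (each + 0.5) between complement genes in each library (vertical axes, log2 ratio), NC beside 0 h p.r., with 1 marker per library and black bars for mean and SD (n = 4). The C1r/C1s and C3/Cd55 ratios sit lower in 3 of 4 0 h p.r. libraries than in any NC library, and the C1s/Serping1 ratios overlap.

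A further 44 complement genes were read to place these values. Of them 32 were listed and 27 tested, of which none was called higher, 1 was called lower and 26 did not pass, against 1.8% called higher and 0.894% called lower of all tested genes. At an unadjusted limma p under 0.05 there were 5 (18.5%), against 22.6% of all tested genes. Their median log2 fold change was -0.09, with 11 above 0 and 16 below. Complete separation of the 2 groups was seen for 3 of the 27 (11.1%), against 15.6% of all tested genes.

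Among 11 tested recognition and activation genes, the adipsin gene Cfd, whose protease activates Cfb, fell and was the one called. It had 1500, 1080, 642 and 554 FPKM in NC and 178, 279, 242 and 430 FPKM in 0 h p.r. Every 0 h p.r. library was below every NC library, as for 7.47% of all tested genes, and the log2 fold change was -1.70 (SE 0.37, limma adjusted p = 0.0337). Cfd is typical of fat cells, and all 8 adipocyte markers had lower means in 0 h p.r., with 5 of 8 past both thresholds and 7 of 8 with groups apart. Their sum, led by Fabp4, was 2663 to 5114 FPKM in NC and 880 to 1955 FPKM in 0 h p.r., and the part of fat in the Cfd values was not tested.

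The Cfd call was likewise lost when any 1 of 6 libraries was left out, in fits that also had fewer replicates. Without NC replicate 3 the log2 fold change was -1.85, against -1.70 with all libraries. The limma adjusted p was 0.0857, 0.0669 and 0.0563 without NC replicates 1, 2 and 3, and 0.0814, 0.0988 and 0.0948 without 0 h p.r. replicates 1, 2 and 3. Its log2 fold change stayed between -1.93 and -1.44 in the 20 alternatives, and the adjusted p between 0.01 and 0.111. Without 0 h p.r. replicate 4 it was -1.93 (limma adjusted p = 0.0189). With libraries scaled to the tenocyte and fibroblast markers it was -1.79 (limma adjusted p = 0.01).

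**Figure D4:**
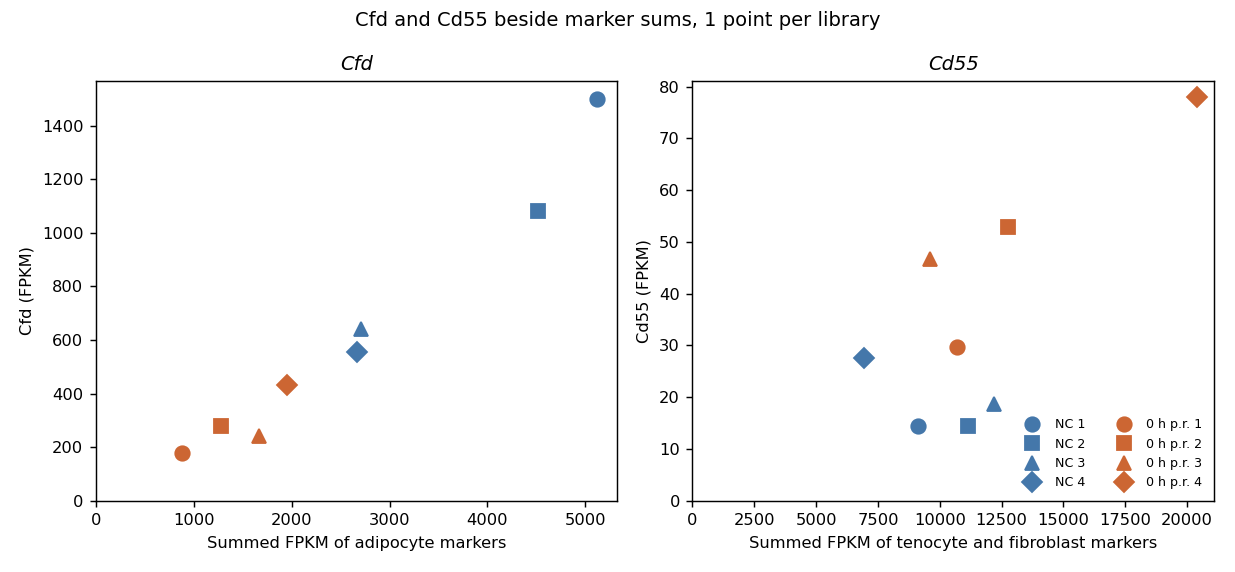
Left, Cfd (FPKM) against the summed FPKM of 8 adipocyte markers, and right, Cd55 (FPKM) against the summed FPKM of 10 tenocyte and fibroblast markers, with linear axes and 1 point per library (colour for group, shape for replicate). Cfd is high where the adipocyte sum is high. All 4 0 h p.r. libraries lie above NC for Cd55, at tenocyte sums of 9621 to 20409 against 6951 to 12206 in NC. The sum of 20409 belongs to 0 h p.r. replicate 4, where Dcn alone is 14777 FPKM.

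The C1q chains, which recognise bound antibody and are made largely by macrophages, did not pass, with log2 fold changes of -0.18 for C1qa, -0.02 for C1qb and -0.09 for C1qc. C1qc was the most abundant of them, at 109 ± 31.6 FPKM in NC and 103 ± 32.2 FPKM in 0 h p.r. (SD, n = 4 each). C4b, the substrate of C1s, had 185, 70.3, 117 and 167 FPKM in NC and 55.6, 77.4, 65.7 and 125 FPKM in 0 h p.r. Its log2 fold change was -0.71 (SE 0.34, limma adjusted p = 0.257), and its value is uncertain because reads can be shared with the near-identical C4a. Masp1, a protease of the lectin pathway, was the other gene of this group with groups apart and was chosen after its values were seen. It had 6.88, 10.8, 15.3 and 6.36 FPKM in NC and 16.3, 17.3, 15.9 and 32.2 FPKM in 0 h p.r., a log2 fold change of 1.04 (SE 0.31, limma adjusted p = 0.0856) that did not pass. Without 0 h p.r. replicate 4 it was 0.81. Of the 11 genes 10 had a log2 fold change below 0.

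Of 6 terminal pathway genes 3 were listed and 2 tested. C6, which binds before C7 in the pore, had 11.1 ± 6.63 FPKM in NC and 11.2 ± 4.25 FPKM in 0 h p.r. (SD, n = 4 each). C8g, a chain of C8, had 2.49 ± 0.517 and 1.84 ± 0.392 FPKM. C9, the ring-forming component, had 2 to 11 reads per library and was below the filter.

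None of 7 tested inhibitors passed, and 2 (28.6%) had an unadjusted limma p under 0.05, against 22.6% of all tested genes. Clu, the extracellular chaperone clusterin that binds terminal complexes, had 1120, 1477, 1727 and 1329 FPKM in NC and 1877, 1676, 3374 and 6239 FPKM in 0 h p.r. Its groups overlapped through 0 h p.r. replicate 2, and the log2 fold change was 1.03 (SE 0.42, limma adjusted p = 0.191), or 0.65 without 0 h p.r. replicate 4. Cd59, which blocks pore assembly on cells as Cd55 blocks convertases, had 167, 207, 142 and 143 FPKM in NC and 117, 124, 116 and 138 FPKM in 0 h p.r. Its groups were apart in the direction opposite to Cd55, with a log2 fold change of -0.40 (SE 0.15, limma adjusted p = 0.154) that did not pass.

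None of 7 tested receptor genes passed, and 1 (14.3%) had an unadjusted limma p under 0.05, against 22.6% of all tested genes. C5ar2, the second C5a receptor and the neighbour of C5ar1 in the annotation, had a log2 fold change of 0.46 (SE 0.30, limma adjusted p = 0.417), or 0.21 without 0 h p.r. replicate 4. Cd93, a surface lectin of endothelial cells, had 41.5, 46.7, 50.8 and 67.6 FPKM in NC and 97.1, 79.4, 74.9 and 54.2 FPKM in 0 h p.r. Replicates 1, 2 and 3 of 0 h p.r. were above NC, and the log2 fold change was 0.55 (SE 0.20, limma adjusted p = 0.149). Of the 6 tested endothelial markers none passed, and 1 had a log2 fold change above 0 and 5 below. The 1 above 0 was Egfl7, at 0.75 (limma adjusted p = 0.027), with its groups apart. The part of endothelial cells in the Cd93 values was not tested. C1qbp, a mitochondrial protein that binds the heads of C1q, had a log2 fold change of -0.08 (limma adjusted p = 0.771).

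**Figure D5:**
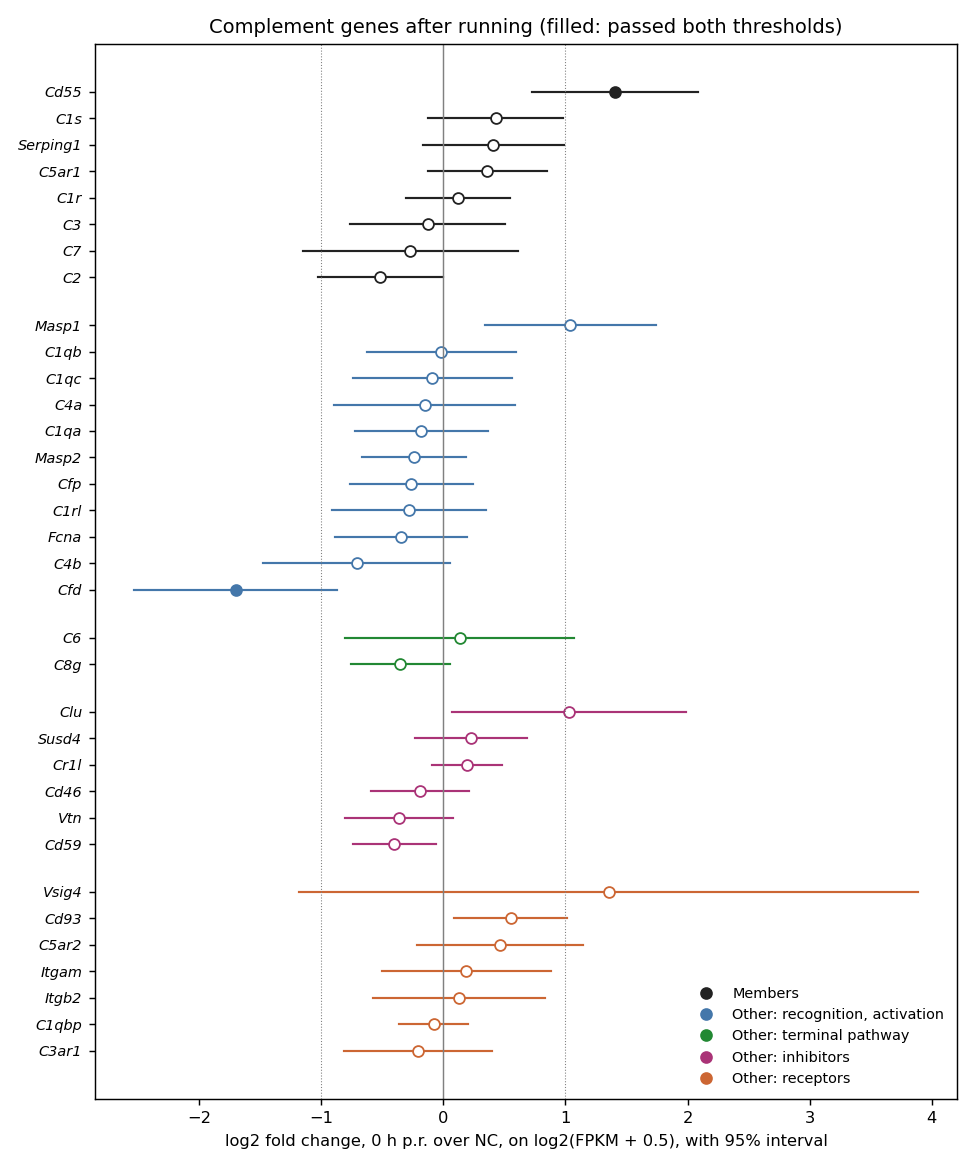
Log2 fold change of 0 h p.r. over NC on the log2(FPKM + 0.5) scale (horizontal axis, lines show 95% intervals) for the 8 complement genes in black and 26 of the 27 further complement genes coloured by role, with filled points for genes past both thresholds and dotted lines at a 2-fold change. Cd55 at 1.41 and Cfd at -1.70 are the filled points.

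The genes with the most similar profile were sought for C3 and C7 by the mean absolute distance between log2(FPKM + 0.5) values centred over the 8 libraries. Nearest to C3 were Rhou at 0.078, Epha1 at 0.121, Mmab at 0.1251, AABR07043748.2 at 0.144 and Prss36 at 0.1496, against a median of 0.382 over all tested genes. Nearest to C7 were LOC102556085 at 0.164, C4a at 0.177, Setdb2 at 0.194, AABR07019086.1 at 0.235 and LOC100911313 at 0.246, against a median of 0.579. For Cd55, which was added after its values were seen, the nearest were Bcat1 at 0.098, Errfi1 at 0.168, Gnpnat1 at 0.190, Susd5 at 0.198 and Medag at 0.200, against a median of 0.756. Bcat1, which starts the breakdown of branched-chain amino acids, had a mean of 30.6 FPKM in NC and 79.1 FPKM in 0 h p.r. These distances describe the 8 libraries, which share differences in depth and cell makeup.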

How the data were processed

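Groups and replicate numbers were taken from the sample titles (4 NC, 4 0 h p.r.). Polyadenylated RNA (integrity number above 7.0 by the labels) was sequenced from stranded libraries. By the submitters' processing notes the authors used HISAT2 2.1.0, featureCounts 1.6.3 and DESeq2 1.30.1 with build Rnor_6.0, and deposited FPKM per gene and library. As deposited, the median ratio of a library's values to the gene means was 0.971 to 0.977 over the 8 libraries. Median-ratio scaling, one of the alternatives, therefore changed little. The deposited columns of the authors' own comparison (log2 fold changes, p-values) were not used.

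Genes reaching 0.5 FPKM in 4 or more of the 8 libraries were kept (13863 of 15590), transformed to log2(FPKM + 0.5) and compared with limma 3.58.1 in R 4.3.3 (trend, two-sided, no covariate, Benjamini-Hochberg over all tested genes). This scale understates the change of low genes. Since FPKM are not counts, count models were not fitted. Whole reads were recovered for 100% of genes (tolerance 0.02) and gave the depth and a voom alternative. On simulated data with 200 genes changed 4-fold, 100% of the changed genes were called among 13923 tested, and 0.99% of calls were unchanged genes. The simulation gave every gene the same relative spread beyond counting error, and its libraries did not differ in cell makeup. These shares therefore do not measure the power for the complement genes. Ratios were tested by exact permutation in Python 3.11.15.

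The members, lists and tests were chosen with earlier results of these data known. Named were all members, further complement genes past both thresholds, the 3 most abundant of each role, the 5 genes nearest to C3 and to C7, and the most abundant marker of each list. Of the genes so named, 1 is not reported here. Alternatives were pseudocounts of 0.1 and 1, other filters, scalings, weights and thresholds, voom, protein-coding genes only, a replicate block and leaving out libraries. Leaving out 0 h p.r. replicates 1 and 4 together and scaling to tenocyte and fibroblast markers were chosen after seeing the data. Promoters came from RefSeq (GRCr8), without conversion to the authors' build.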

Additional observations from a re-analysis of the deposited data

Results flagged for a closer look

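Among 78 groups of 4 libraries (39 of the listed complement genes in 2 groups, with the gene that is not reported left out), 5 had a library far from the other 3 by Dixon's criterion of gap over range, which chance gives in about 5% of groups. In 0 h p.r. replicate 4, Masp1 had 32.2 FPKM against 15.9 to 17.3 FPKM in the other 0 h p.r. libraries. In the same library C5ar2 had 35.2 FPKM against 16.2 to 19.0 FPKM, and C9 had 0.184 FPKM against 0.0627 to 0.0689 FPKM, from few reads. In NC, C1qa had 68.1 FPKM in replicate 3 against 110.2 to 118 FPKM in the others. Vsig4, a macrophage receptor for C3 fragments, had 13.7 FPKM in NC replicate 4 against 0.0715 to 2.19 FPKM in the others.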

How the results depend on the processing

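The count of all genes passing was 374. It was 212 with the replicate block, 793 by adjusted p alone, 244 with libraries scaled to the tenocyte and fibroblast markers, and 195 to 516 when single libraries were left out. Of the 8 complement genes the number passing was 1 (Cd55). It was 0 under quantile scaling and under the tenocyte and fibroblast scaling (limma, with 2 and 1 genes at an unadjusted p under 0.05), and 0 to 1 when single libraries were left out. Of the 27 further complement genes the number passing was 1 (Cfd). It was 0 with the replicate block and without 0 h p.r. replicates 1 and 4 together (limma, with 3 genes at an unadjusted p under 0.05 in each), and 0 to 1 when single libraries were left out. The cause was not tested. The replicate numbers did not pair the samples: deviations of same-numbered libraries correlated at -0.141, -0.0708, 0.0717 and 0.00562. With the block the limma adjusted p was 0.0193 for Cd55 and 0.111 for Cfd.

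Uncalled values crossed 0 for C3 (2 of 19 alternatives), C1r (2 of 20), C7 (1 of 20), C6 (4 of 20), C1qc (3 of 20) and the C1s/Serping1 ratio (4 of 11). No ratio passed under its alternatives, which with so few assignments says nothing of stability. C3 was untested at a mean FPKM of at least 2, and a planned C2/Cfb ratio was not run. C3 rested on 29 to 151 reads, and counting error and spread between libraries were not separated.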
